A study of Homo sapiens with 3 samples.

Results

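The comparison described here sets Molm13 cells exposed for 6 h to 50 nM pyrvinium against Molm13 cells given the vehicle, DMSO, for the same time. Molm13 is an established human acute myeloid leukemia line that carries an internal tandem duplication of the receptor tyrosine kinase FLT3 (FLT3-ITD) and a KMT2A fusion, and all libraries of the series come from unsynchronized cells of this line. The series holds 3 RNA-seq libraries, for DMSO, 50 nM and 100 nM pyrvinium, with 1 library each, and 2 of the 3 form this comparison. The 100 nM library shares the DMSO control with it, so its values are set beside those at 50 nM and are not a second, independent comparison. Of 25702 gene models counted, the 10931 with at least 50 counts in the DMSO or the 50 nM library were compared. With 1 library a side, no difference has a replicate check: the test on reads compares these libraries, not the conditions, and each 95% interval covers counting error only.

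Pyrvinium is a cationic cyanine dye, long used against pinworms, that collects in mitochondria and impairs respiration. Cells answer mitochondrial trouble or a shortage of amino acids through the integrated stress response (ISR): kinases phosphorylate the initiation factor eIF2α, general translation slows, and the transcription factor ATF4 is made and turns on genes for amino acid import and synthesis, tRNA charging and redox balance. The unfolded protein response of the endoplasmic reticulum (ER) overlaps with the ISR through the eIF2α kinase PERK (EIF2AK3). ER chaperones are raised largely by its XBP1 and ATF6 arms, and cytosolic chaperones by HSF1 in the heat shock response.

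At 50 nM, 6 regulators and effectors of the ISR, 5 enzymes of amino acid metabolism and the cystine importer SLC7A11 rose, while many ER and cytosolic chaperones, mitochondrially encoded mRNAs and DNA replication genes were lower by small amounts. The largest rise among genes with a symbol and at least 100 counts was that of TSC22D3, which encodes the glucocorticoid-induced leucine zipper, with 112 counts in DMSO and 346 at 50 nM. The largest fall was that of RAB39A, which encodes a small GTPase of vesicle traffic, with 148 and 57 counts. A gene was called when the 2 libraries differed by 1.5-fold or more and the exact binomial test of its counts, after Benjamini-Hochberg adjustment over all genes compared, gave a p no higher than 0.05. By that rule 168 genes (1.54% of those tested) were higher and 91 (0.832%) were lower at 50 nM, 259 in all (2.37%). At 2-fold, 30 genes (0.274%) were higher and 10 (0.0915%) were lower. Most genes moved little: across all 10931 the log2 fold change had a median of 0.0001 and a median size, sign aside, of 0.12, with the 5th and 95th percentiles at -0.34 and 0.37.

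The promoters of 6 genes on which the results turn are given first, because the response elements of the ISR, of the ER and cytosolic chaperones, of glucose sensing and of serum signaling are defined by short letter patterns. The sequences are those of RefSeq on GRCh38.p14, 250 bases before to 50 after the annotated start, written 5′ to 3′ on the strand of the gene, with the matched letters in capitals. For the ISR genes CHAC1 (chr15:40953221-40953520, plus strand) and ASNS (chr7:97872359-97872658, minus strand) the capitals mark the C/EBP-ATF response element, searched as TTNCATCA on both strands. For TXNIP (chr1:145996530-145996829, minus strand) they mark a carbohydrate response element, in its relaxed form. For HSPA5 (chr9:125241294-125241593, minus strand) they mark the ER stress element, CCAAT followed after 9 bases by CCACG. For HSPA8 (chr11:123062087-123062386, minus strand) they mark 2 matches to the heat shock element, the units GAA, TTC and GAA each 2 bases apart. For EGR1 (chr5:138465229-138465528, plus strand) they mark 2 matches to the CArG box of serum response elements, CC and GG with 6 bases of A or T between them. Both strands were searched for every pattern. ASNS and TXNIP have 2 promoter entries each, and the entry shown is the first that holds the pattern.
CHAC1: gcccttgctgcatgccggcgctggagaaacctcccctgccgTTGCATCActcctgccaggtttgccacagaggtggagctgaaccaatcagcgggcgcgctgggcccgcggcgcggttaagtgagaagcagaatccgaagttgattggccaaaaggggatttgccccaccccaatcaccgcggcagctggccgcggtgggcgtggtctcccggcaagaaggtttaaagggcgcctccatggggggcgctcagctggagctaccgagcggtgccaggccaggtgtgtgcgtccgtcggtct
ASNS: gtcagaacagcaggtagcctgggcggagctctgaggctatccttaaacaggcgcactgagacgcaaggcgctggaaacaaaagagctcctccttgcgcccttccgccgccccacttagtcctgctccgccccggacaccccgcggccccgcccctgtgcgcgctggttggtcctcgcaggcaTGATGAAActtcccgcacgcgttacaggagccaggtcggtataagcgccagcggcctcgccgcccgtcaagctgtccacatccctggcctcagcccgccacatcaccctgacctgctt
TXNIP: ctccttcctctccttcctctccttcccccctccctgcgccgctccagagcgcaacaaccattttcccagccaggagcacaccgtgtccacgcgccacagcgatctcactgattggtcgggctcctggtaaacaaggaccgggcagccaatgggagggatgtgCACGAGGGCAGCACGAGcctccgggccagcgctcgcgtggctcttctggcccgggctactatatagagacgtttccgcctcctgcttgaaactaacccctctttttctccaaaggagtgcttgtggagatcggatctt
HSPA5: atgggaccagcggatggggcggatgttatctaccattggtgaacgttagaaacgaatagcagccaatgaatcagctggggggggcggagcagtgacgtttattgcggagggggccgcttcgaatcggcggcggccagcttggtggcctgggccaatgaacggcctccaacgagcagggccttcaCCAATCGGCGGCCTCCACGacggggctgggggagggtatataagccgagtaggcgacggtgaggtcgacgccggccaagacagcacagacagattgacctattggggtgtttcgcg
HSPA8: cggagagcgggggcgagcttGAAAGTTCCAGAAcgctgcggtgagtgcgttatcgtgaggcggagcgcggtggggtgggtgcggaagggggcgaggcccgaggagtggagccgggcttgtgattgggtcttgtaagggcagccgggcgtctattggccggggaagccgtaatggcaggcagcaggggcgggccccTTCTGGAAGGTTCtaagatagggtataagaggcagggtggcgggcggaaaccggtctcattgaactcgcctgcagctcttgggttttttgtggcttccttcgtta
EGR1: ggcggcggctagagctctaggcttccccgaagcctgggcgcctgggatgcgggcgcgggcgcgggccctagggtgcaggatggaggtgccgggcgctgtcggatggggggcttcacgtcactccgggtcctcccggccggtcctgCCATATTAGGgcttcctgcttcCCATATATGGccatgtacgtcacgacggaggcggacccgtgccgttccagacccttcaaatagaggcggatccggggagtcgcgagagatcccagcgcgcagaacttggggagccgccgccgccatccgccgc
Of all 35116 promoters in the table, 3.62% hold the first pattern, 0.501% the carbohydrate response element, 0.0769% the ER stress element, 0.49% the heat shock element and 1.29% the CArG box. A match is a description of these letters, not evidence that a factor binds there.

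The 3 libraries held 22677038 to 24075123 counted reads each, over 15355 to 15685 genes with at least 1 count, so that 3 counts, the limit taken for a gene without reads, are at most 1.32e-05% of a library. All 12 marker genes of Molm13 and myeloid leukemia cells (among them FLT3, CD33, SPI1 and HOXA9) had at least 50 counts in each library. No marker of B cells, erythroid cells, megakaryocytes or fibroblasts reached 50 counts in any library, and of the 5 T cell markers only TRAC did, while CD3E and CD2 had 0 counts in all 3. The beta-globin gene HBB, an erythroid marker, had 0 counts in DMSO, 16 at 50 nM and 0 at 100 nM, and its part in other differences was not tested.

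The 50 nM library stood apart from the other libraries in its opposite-strand counts. Gene models that lie opposite the exons of an abundant gene carried about 2 times as many counts in it as in DMSO, while the abundant genes themselves had a median log2 fold change of 0.0038, with a range of -0.38 to 0.52. There were 47 such models, each with at least 30% of its length under the exons of a gene on the other strand that had at least 5000 counts in DMSO and at least 50 times the counts of the model. They held 1158 counts in DMSO, 2373 at 50 nM and 890 at 100 nM, which is 0.0984% (95% Wilson interval 0.0929 to 0.104), 0.195% (0.187 to 0.203) and 0.0695% (0.0651 to 0.0742) of the counts of the models and their 46 opposite genes together. The log2 fold change of the summed counts at 50 nM was 1.07 (0.97 to 1.18). Of the 29 models with at least 10 counts in DMSO, 27 were highest in the 50 nM library relative to library size. For example, the model opposite the elongation factor gene EEF1A1 (Entrez 100129409, chromosome 6 of hg19 from 74213006 to 74227658) had 77, 220 and 46 counts, and EEF1A1 itself had 190417, 215554 and 231039. Of these models, 11 passed the count filter and were called higher, 2 of them (opposite LCP1 and RHOA) having passed through the 50 nM library alone, so that they could only be called in that direction. They are counted in the 168, and their part in the other rises was not tested; without them 248 genes were called, 157 higher and 91 lower. The bars of opposite-strand counts show the 50 nM library above the other libraries, with intervals that do not overlap.

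**Figure D1:**
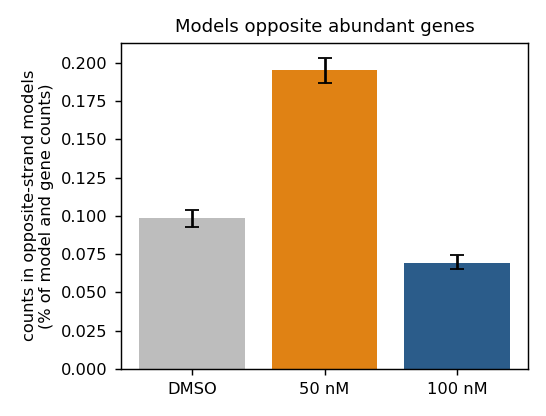
Share of counts in the 47 gene models opposite abundant genes, as a percentage of the counts of the models and those genes together (vertical axis), in the DMSO, 50 nM and 100 nM libraries (horizontal axis, 1 library each). Bars are the shares and error bars the 95% Wilson intervals; the 50 nM library, at 0.195%, lies above DMSO, at 0.0984%, and 100 nM, at 0.0695%.

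Most called genes were of low count. Of the 168 higher genes, 139 had under 300 counts in DMSO, as did 77 of the 91 lower genes, and among the 4965 genes with at least 1000 DMSO counts 11 were higher and 5 lower. The count filter admitted 136 genes through the 50 nM library alone, of which 47 were called higher, and 137 through DMSO alone, of which 28 were called lower; these could only be called in that direction. Just inside the fold threshold lay SNAI3, with 210 counts in DMSO and 136 at 50 nM, and SOCS1, with 82 and 53, which missed the adjusted p. Just outside lay LRRC37A, with 78 and 114 counts, and ENTPD5, with 102 and 149. By the adjusted p alone, at any fold, 3680 genes passed, 1922 higher and 1758 lower. For the gene lists below, a second and looser count is given: members whose 95% interval excludes no change, as did 2368 (21.7%) of all genes tested upward and 2189 (20.0%) downward.

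**Figure D2:**
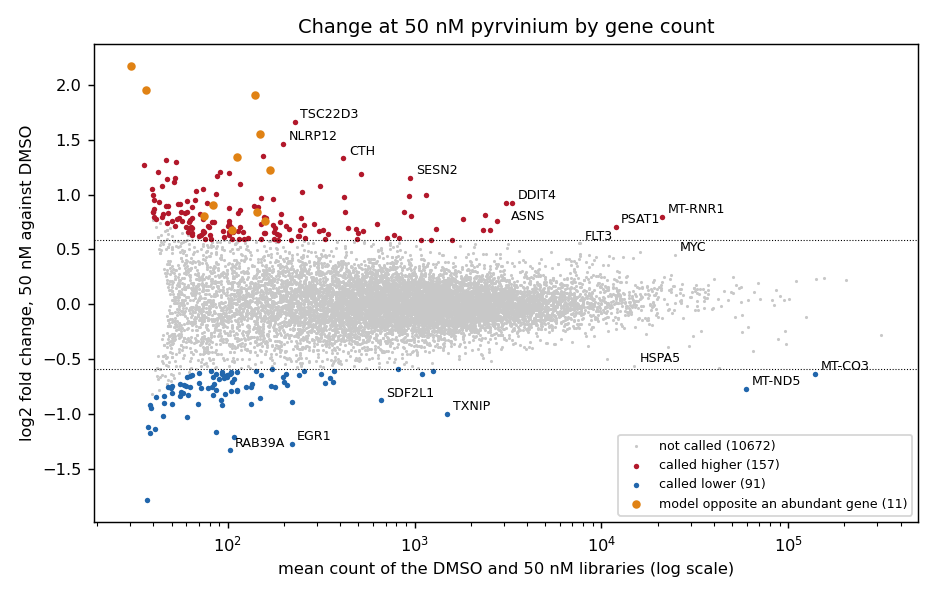
Log2 fold change at 50 nM against DMSO (vertical axis) by the mean count of the 2 libraries (horizontal axis, log scale) for the 10931 genes compared. Red points are called higher, blue points called lower, orange points are the 11 models opposite abundant genes and dotted lines mark 1.5-fold; the called genes crowd at low counts, and MT-RNR1, MT-ND5 and MT-CO3 stand out at high counts.

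The ISR regulators and effectors were led upward by CHAC1, which encodes a glutathione-degrading enzyme. It had 88 counts in DMSO, 219 at 50 nM and 382 at 100 nM. At the low dose it rose by 1.35 (0.99 to 1.73) on the log2 scale, or 2.55-fold. SESN2, encoding sestrin 2, which restrains the growth kinase complex mTORC1 when leucine is short, had 600, 1300 and 2032 counts, and rose by 1.15 (1.01 to 1.30) at 50 nM. STC2, which encodes the secreted glycoprotein stanniocalcin 2, had 634, 1225 and 1897 counts and rose by 0.99 (0.85 to 1.13). DDIT4, whose product REDD1 also restrains mTORC1, had 2335, 4313 and 7879 counts and rose by 0.93 (0.85 to 0.998) on the log2 scale. In each of these genes the 50 nM library stood between DMSO and 100 nM.

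Of the 27 ISR genes listed, 24 passed the count filter, and NUPR1, GDF15 and FGF21 had at most 1 count in DMSO and 50 nM. Of the 24, 18 had an interval above no change and 0 below, 6 were called higher and 0 lower, and their median log2 fold change was 0.34. The 6 were CHAC1, SESN2, STC2, DDIT4, JDP2 (a bZIP repressor, 0.84) and VLDLR (a lipoprotein receptor, 0.81). The pseudokinase gene TRIB3, an ATF4 target that feeds back on ATF4, had 1739, 2480 and 4101 counts which gave 0.55 (0.46 to 0.64) on the log2 scale, just under the fold threshold. ATF4 itself had 12788, 16646 and 18669 counts, a log2 change of 0.42 (0.39 to 0.45). DDIT3, encoding the transcription factor CHOP, had 236, 319 and 500 counts with a log2 change of 0.47 (0.23 to 0.72). At the top of the pathway the 4 eIF2α kinase genes gave log2 fold changes of -0.28 for EIF2AK2, -0.03 for EIF2AK4, -0.01 for EIF2AK1 and 0.14 for EIF2AK3, and all 4 intervals spanned no change. DELE1 and OMA1, the mitochondrial protein and protease that relay mitochondrial stress to EIF2AK1, had log2 fold changes of 0.25 (0.14 to 0.35) and 0.48 (0.29 to 0.67).

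ADM2, which encodes the peptide intermedin, was in no list but among the 15 largest rises. It had 63, 141 and 246 counts and rose by 1.20 (0.76 to 1.65) at 50 nM. ATF3, an early ATF4 target, had 213, 221 and 349 counts. It stood at 0.09 (-0.18 to 0.37) for 50 nM against DMSO and at 0.57 (0.33 to 0.82) for 100 nM against 50 nM.

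Among the mTORC1 brakes, 11 of 15 genes passed the filter. SESN2 and DDIT4 were the only 2 of the 11 called. The subunits of GATOR1, a complex that holds mTORC1 off in amino acid shortage, were at log2 fold changes of -0.12 for NPRL2, 0.05 for DEPDC5 and 0.24 (0.09 to 0.39) for NPRL3. The tuberous sclerosis genes TSC1 and TSC2 were at 0.14 and 0.02.

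Enzymes of amino acid and one-carbon metabolism formed the second group of rises. CTH, encoding cystathionine gamma-lyase, which makes cysteine from cystathionine, had 241 counts in DMSO, 591 at 50 nM and 919 at 100 nM, and rose by 1.33 (1.12 to 1.56). ASNS, encoding asparagine synthetase, had 2162, 3978 and 5853 counts and rose by 0.92 (0.84 to 0.996). PCK2, the mitochondrial phosphoenolpyruvate carboxykinase, had 2085, 3426 and 4997 counts and rose by 0.76 (0.68 to 0.84). PSAT1, of serine synthesis, had 9214, 14606 and 19340 counts and rose by 0.70 (0.67 to 0.74). GPT2, a mitochondrial alanine aminotransferase, had 1971, 3073 and 3789 counts and rose by 0.68 (0.60 to 0.76).

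These were the 5 called genes among the 32 tested of 33 listed, PRODH having 0 and 2 counts. Of the 32, 22 had an interval above no change and 3 below, with a median log2 fold change of 0.24. Other genes of the serine and mitochondrial folate route lay under the fold threshold with an interval above no change: PHGDH at 0.48, PSPH at 0.31, SHMT2 at 0.44, MTHFD2 at 0.43, MTHFD1L at 0.41 and ALDH1L2 at 0.55 on the log2 scale. The cytosolic serine hydroxymethyltransferase SHMT1 was at -0.03 (-0.18 to 0.11), and MTHFD2L, a second mitochondrial folate enzyme and the lowest of the list, was at -0.18 (-0.66 to 0.29). The proline synthesis enzymes PYCR1 and ALDH18A1 were at 0.10 and 0.00, and the 3 genes with an interval below were PYCR3, OAT and MAT2A, at -0.16, -0.14 and -0.05.

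The amino acid transporters divided. SLC7A11, the cystine importer, had 783, 1517 and 2234 counts and rose by 0.99 (0.87 to 1.12), the only one called of the 22 tested of 25 listed. Its heavy-chain partner SLC3A2 was at 0.56 (0.51 to 0.60), with 6224, 8896 and 10486 counts. The leucine importer SLC7A5 and the arginine importer SLC7A1 were at 0.48 and 0.46, and the neutral amino acid carriers SLC1A4, SLC1A5, SLC38A1 and SLC38A2 lay between 0.27 and 0.46. On the other side the glutamate transporter SLC1A3 had 299, 197 and 187 counts, at -0.56 (-0.83 to -0.30), and SLC7A6 was at -0.27. Over the list 9 members had an interval above no change and 7 below, and the median was -0.04.

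The cytosolic aminoacyl-tRNA synthetases, which charge tRNAs, were higher by small amounts. Of 20 genes, 16 had an interval above no change and 3 below, 0 were called, and the median log2 fold change was 0.24. The highest were CARS1, with 1981, 2647 and 3660 counts, at 0.46 (0.37 to 0.54), AARS1 at 0.41 and GARS1 at 0.37. The lowest were RARS1, FARSA and HARS1, at -0.15, -0.14 and -0.13. The mitochondrial synthetases had a median of 0.07, with 7 of 17 intervals above no change and 1 below.

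The C/EBP-ATF pattern marked in the promoters of CHAC1 and ASNS was unevenly spread over these lists. It was in the promoter of 7 of the 16 cytosolic synthetases with an entry (AARS1, CARS1, GARS1, IARS1, MARS1, NARS1 and TARS1), in 6 of 20 amino acid transporters (SLC1A3, which was lower, among them), in 4 of 22 amino acid enzymes and in 4 of 23 ISR genes, against 2.48% of the 8628 tested genes with a promoter entry. Over all 214 tested genes that hold it, the listed ones among them, the median log2 fold change was 0.05. Of their intervals 70 lay above no change and 27 below, and 8 genes were called higher and 1 lower. Over the 8628 genes the median was -0.0014, 1878 intervals lay above no change and 1764 below, and 118 genes were called higher and 60 lower. RARS1, FARSA and HARS1, the lowest synthetases, are not among the 7, and neither are SARS1 and WARS1, at log2 fold changes of 0.35 and 0.31. Some synthetases had no promoter entry, so absence from the 7 need not mean absence of the pattern.

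The MondoA list had 4 tested genes, of which 2, its transcriptional targets TXNIP and ARRDC4, were called lower. TXNIP, encoding thioredoxin-interacting protein, a brake on glucose uptake that the sugar sensor MondoA turns on, had 2017 counts in DMSO, 982 at 50 nM and 1214 at 100 nM. The 50 nM value was -0.998 (-1.11 to -0.89) on the log2 scale, with an adjusted p of 8.58e-73 in the exact binomial test with Benjamini-Hochberg adjustment, which compares these libraries only. ARRDC4, its paralog and fellow MondoA target, had 288, 151 and 169 counts, at -0.89 (-1.19 to -0.60). The sensor genes MLXIP (MondoA) and MLX were at -0.16 and 0.00. Over all 92 tested genes that hold the carbohydrate response element, the median was 0.02, with 27 intervals above no change and 20 below. TXNIP was the most reduced gene with at least 1000 counts in DMSO. In both target genes the 100 nM library was no lower than the 50 nM library: for TXNIP the 100 nM against 50 nM log2 fold change was 0.22 (0.10 to 0.34), and for ARRDC4 it was 0.08 (-0.25 to 0.40). Both were named for their falls at 50 nM, and this comparison reuses that library, which favors a higher value at 100 nM.

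The glycolytic genes themselves varied around no change, with a median of -0.04 over 22 tested, 0 called, 5 intervals above no change and 6 below. Lactate dehydrogenase LDHA was at -0.24 and the lactate exporter SLC16A3 at -0.35, while hexokinase HK2 was at 0.20 and enolase ENO1 at 0.19. Of the genes that hypoxia also induces, VEGFA, the vascular growth factor, had 1363, 2276 and 3643 counts, at 0.78 (0.68 to 0.88), and was called higher together with DDIT4. BHLHE40, a circadian repressor, had 137, 87 and 107 counts and was called lower, at -0.61 (-1.02 to -0.22). The 14 tested hypoxia genes had 2 intervals above no change, those of VEGFA and DDIT4, and 7 below, and a median of -0.14.

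ER chaperones were lower. SDF2L1, an ER cochaperone, had 864 counts in DMSO, 458 at 50 nM and 373 at 100 nM, and stood at -0.88 (-1.04 to -0.71) on the log2 scale for 50 nM. MANF, a secreted ER stress factor, had 1347, 843 and 651 counts, at -0.64 (-0.76 to -0.51). These were the 2 called of the 36 in the list. HSPA5, encoding the central ER chaperone BiP, had 18101, 11928 and 10090 counts, at -0.56 (-0.60 to -0.53), just short of the fold threshold. Over the 36 genes 19 intervals lay below no change and 3 above, and the median was -0.13.

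The regulators of the ER response differed less. The sensor ATF6 was at 0.06, the kinase ERN1 (IRE1) at 0.17 (-0.19 to 0.53) and the transcription factor XBP1 at -0.06 (-0.11 to -0.01). The members with an interval above no change were EDEM1 and EDEM2, which route misfolded glycoproteins to degradation, at 0.32 and 0.19, and the HSPA5 exchange factor SIL1, at 0.29. The ER stress element was in the promoter of 8 of 33 listed genes with an entry (CALR, CANX, CRELD2, ERO1B, HSP90B1, HSPA5, PDIA6 and XBP1), against 0.162% of tested genes. The 14 tested genes that hold it include these 8, so their values largely repeat those of the list. Of the 14, 10 had an interval below no change and 1, the initiation factor gene EIF2A, above, with a median of -0.19. At the 2 ends of the 14 stood HSPA5 and the membrane protein gene TMEM120A, at 0.18 (-0.08 to 0.44).

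Cytosolic heat shock genes were lower as well. The Hsp110 gene HSPH1 had 20544, 14246 and 11658 counts, at -0.49 (-0.52 to -0.46). DNAJA1, a type I Hsp40 cochaperone, had 12676, 8746 and 7264 counts, at -0.50 (-0.54 to -0.46), and the Hsp70 cochaperone BAG3 had 298, 197 and 202 counts, at -0.56 (-0.82 to -0.29). The constitutive Hsp70 gene HSPA8, whose promoter is given above, had 110626, 83667 and 68262 counts, at -0.36 (-0.38 to -0.35). Of 29 tested genes of 31 listed, 20 intervals lay below no change and 2 above, the median was -0.21, and 0 were called, so the lower values were widespread but under the fold threshold.

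Within the Hsp90 machinery the copies parted: HSP90AA1 was at -0.32 (-0.33 to -0.30) and HSP90AB1 at -0.0016 (-0.02 to 0.01) on the log2 scale. The regulator HSF1 was at 0.07 (-0.03 to 0.18). HSPA1A and HSPA1B are near-identical copies between which reads can be split, so their values, -0.31 and -0.16, are uncertain. The heat shock element was in 6 of 25 listed promoters with an entry, among them HSPA8, DNAJA1, HSP90AA1 and HSP90AB1, against 0.464% of tested genes. The 40 tested genes that hold it, these 6 among them, had a median of -0.03, with 12 intervals below no change and 5 above. The chaperonin TRiC, which folds actin and tubulin, had a median of -0.06 over 8 genes.

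Mitochondrially encoded transcripts separated: the ribosomal RNAs were higher and the mRNAs lower. The mitochondrial genome is transcribed from both strands as long precursors that are cut at tRNAs; the first genes after the heavy-strand start are the ribosomal RNAs, and ND6 is the mRNA of the light strand. MT-RNR1, the 12S ribosomal RNA (positions 648 to 1601 of the mitochondrial chromosome of hg19), had 15742 counts in DMSO, 26577 at 50 nM and 67427 at 100 nM, at 0.80 (0.77 to 0.82) for 50 nM. MT-RNR2, the 16S ribosomal RNA, had 144258, 166105 and 315015 counts, at 0.24 (0.23 to 0.25). The library kit selects polyadenylated RNA, so these 2 values describe the ribosomal RNA that was captured.

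All 13 mitochondrial mRNAs had an interval below no change, with a median log2 fold change of -0.28, and 2 were called. MT-ND5, a complex I subunit, had 76054, 43481 and 34880 counts, at -0.77 (-0.78 to -0.75). MT-CO3, of cytochrome oxidase, had 172103, 107789 and 91340 counts, at -0.64 (-0.65 to -0.62), and MT-CYB, of complex III, had 51953, 33712 and 27288 counts, at -0.58 (-0.60 to -0.56). In genome order the log2 values were -0.21 for MT-ND1, -0.25 for MT-ND2, -0.28 for MT-CO1 and -0.24 for MT-CO2, then -0.35 for MT-ATP8 and -0.43 for MT-ATP6 before MT-CO3, and -0.24, -0.14 and -0.11 for MT-ND3, MT-ND4L and MT-ND4 before MT-ND5 and MT-CYB. They did not fall steadily with distance from the start.

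MT-ND6 had 9188, 7332 and 13170 counts. It was lower than DMSO at 50 nM, at -0.29 (-0.33 to -0.24), and higher than DMSO at 100 nM, at 0.47 (0.43 to 0.51). MT-ND1, with 66032, 55645 and 66378 counts, was likewise lower at 50 nM than in either of the other libraries. Mitochondrial mRNAs made up 4.9% of counts in DMSO, 3.83% at 50 nM and 3.52% at 100 nM. In such bulk libraries fewer mitochondria, or fewer cells of a kind, and less RNA in each cannot be told apart.

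**Figure D3:**
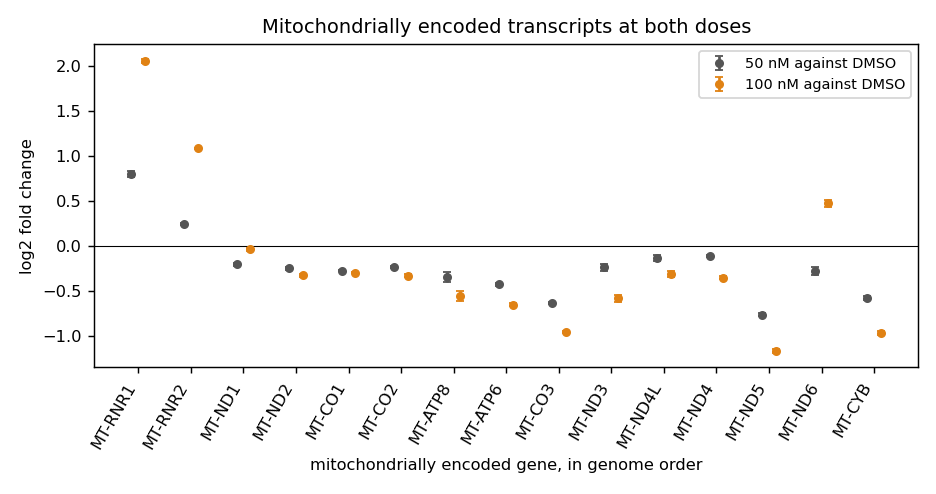
Log2 fold change against the DMSO library (vertical axis) of the 15 mitochondrially encoded genes in genome order (horizontal axis) at 50 nM (grey) and 100 nM (orange), which share that DMSO library. Error bars are 95% counting intervals, often smaller than the points; both ribosomal RNAs lie above 0, the 13 mRNAs lie below 0 at 50 nM, and MT-ND6 lies above 0 at 100 nM.

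The nuclear-encoded subunits of the respiratory chain lay near no change. The 37 nuclear complex I subunits had a median of -0.01, with 4 intervals on each side of no change, and the 38 tested subunits of complexes II to V had a median of 0.02, with 12 above and 7 below. None in either list was called. Mitochondrial ribosomal proteins had a median of -0.02 over 75 genes, with 28 intervals below no change and 10 above. Factors that copy and transcribe mitochondrial DNA had a median of -0.02, and mitochondrial chaperones and proteases one of -0.0010, with OMA1 and the protease LONP1 (0.22) highest and the chaperonin partner HSPE1 (-0.22) lowest.

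Genes of cholesterol synthesis were higher by small amounts. HMGCS1, which makes HMG-CoA, had 1812, 2828 and 3050 counts, at 0.68 (0.60 to 0.77), and was the only one called of 24 tested. The sterol sensor INSIG1 was at 0.39 and the desaturase SC5D at 0.44. Of the 24, 17 intervals lay above no change and 0 below, with a median of 0.20. For HMGCS1 the 100 nM library differed little from the 50 nM library, at a log2 difference of 0.02 (-0.05 to 0.10). Fatty acid synthesis genes had a median of 0.13 over 14 tested, with ACACA, encoding acetyl-CoA carboxylase, at 0.26 and the elongase ELOVL6 at -0.32.

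The protein synthesis machinery was slightly higher. Of 78 cytosolic ribosomal protein genes, 55 had an interval above no change and 3 below, with a median of 0.09 and 0 called; RPL12 was the highest, at 0.45 (0.40 to 0.49), and RPL21, a gene with many processed copies, the lowest, at -0.14. Of 42 translation factors, 28 intervals lay above and 3 below, with EIF4A2, an RNA helicase of initiation, at 0.44 (0.40 to 0.48), EIF1 at 0.34 and EEF2 at 0.23, and the eIF2B subunit gene EIF2B4 lowest at -0.34. Host genes of small nucleolar RNAs had a median of 0.14 and 10 of 16 intervals above no change, with 0 below. Proteasome subunits leaned the other way, with a median of -0.05 and 12 of 34 intervals below no change against 2 above.

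Of 19 tested G1 genes, 11 intervals lay below no change and 3 above, and 1 gene was called lower. The G1 cyclin gene CCND1 had 91, 52 and 55 counts, at -0.76 (-1.29 to -0.26), and was the one called. The E-type cyclins, which start S phase with CDK2, were lower by less: CCNE1 had 852, 575 and 533 counts, at -0.53 (-0.68 to -0.37), CCNE2 had 3068, 2086 and 1890 counts, at -0.52 (-0.60 to -0.44), and CDK2 had 1197, 862 and 792 counts, at -0.43 (-0.56 to -0.31). The factors E2F1 and E2F2 and the phosphatase CDC25A lay between -0.35 and -0.30. The inhibitor CDKN1A (p21) was at 0.24 (0.15 to 0.34), as was the kinase CDK6, and the retinoblastoma relative RBL2 was at 0.17.

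Of 43 DNA replication genes, 31 had an interval below no change and 1, the helicase subunit MCM6, above, with a median of -0.14 and 0 called. The initiation factor MCM10 had 2923, 2111 and 1831 counts, at -0.43 (-0.51 to -0.35), the flap nuclease FEN1 was at -0.39 and the ribonucleotide reductase subunit RRM2 at -0.38. Mitosis genes were lower by less, with a median of -0.09 and 19 of 38 intervals below no change against 1 above, that of the spindle factor TPX2. CENPA, the centromeric histone, was the lowest, at -0.33.

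Immediate early genes and targets of FLT3 signaling did not move as one. EGR1, an immediate early factor downstream of ERK and serum response factor, had 313 counts in DMSO, 126 at 50 nM and 170 at 100 nM, at -1.27 (-1.58 to -0.97). Over all 127 tested genes that hold the CArG box, EGR1 among them, the median was 0.03, with 38 intervals above no change and 24 below. IER5L, a relative of the immediate early gene IER5, had 153, 64 and 115 counts, at -1.21 (-1.66 to -0.79). PIM1, a survival kinase that STAT5 turns on, had 461, 274 and 424 counts, at -0.71 (-0.93 to -0.49). CISH, another STAT5 target, had 636, 471 and 611 counts, at -0.39 (-0.57 to -0.22).

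In each of these 4 genes the 50 nM library was the lowest of the 3. EGR1, IER5L and PIM1 were named for their falls at 50 nM, and CISH after its value was seen. The comparison below reuses that 50 nM library, which by itself favors higher values at 100 nM. The 100 nM against 50 nM log2 fold changes were 0.34 (0.01 to 0.69) for EGR1, 0.75 (0.31 to 1.22) for IER5L, 0.54 (0.32 to 0.77) for PIM1 and 0.29 (0.11 to 0.47) for CISH. For PIM1 and CISH the 100 nM library did not differ from DMSO beyond counting error, at -0.17 (-0.36 to 0.03) and -0.10 (-0.27 to 0.06).

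Other readouts of the same pathways lay on both sides of no change. FLT3, the mutant receptor's own gene, had 6304, 9012 and 11181 counts, at 0.56 (0.51 to 0.60). MYC had 21175, 28215 and 33596 counts, at 0.45 (0.43 to 0.48), and JUN, a partner of FOS, had 46, 87 and 116 counts, at 0.95 (0.43 to 1.51), the only one called higher among 16 tested ERK and immediate early genes, and one that passed the count filter through the 50 nM library alone. FOS was at 0.09 (-0.01 to 0.18) and the ERK phosphatase gene DUSP6 at -0.07 (-0.35 to 0.20), while the ERK targets ETV4 and DUSP5 were at -0.56 (-0.75 to -0.37) and -0.56 (-1.06 to -0.09), and CCND1, also of this list, was called lower. Of those 16 genes, 7 intervals lay below no change and 2 above; of 18 FLT3 and STAT5 output genes, 5 lay below and 3 above. The Wnt pathway genes had a median of -0.01, with 3 intervals below no change and 2 above of 11 tested.

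**Figure D4:**
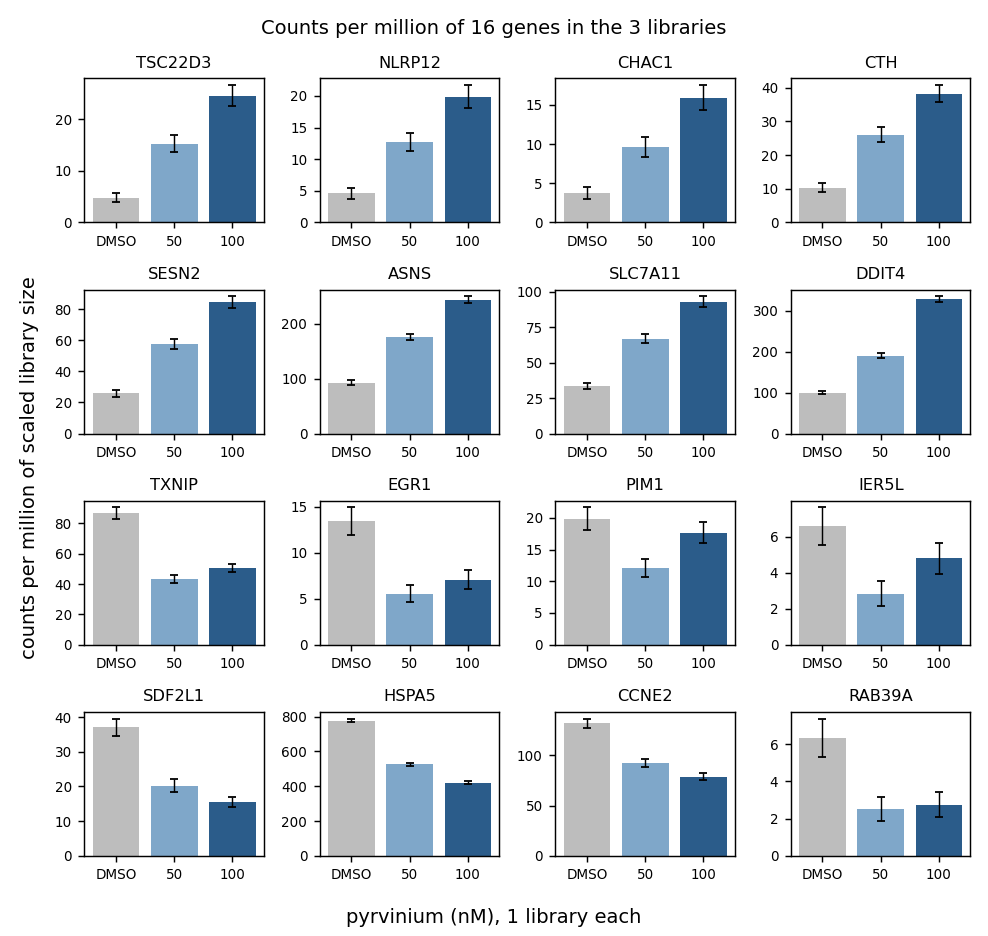
Counts scaled to library size (CPM) (vertical axes, from 0) of 16 genes in the DMSO, 50 nM and 100 nM libraries (horizontal axes, 1 library each). Bars are single libraries and error bars approximate 95% counting error. In the panels 8 genes climb with dose, while TXNIP, EGR1, PIM1 and IER5L are lowest at 50 nM. RAB39A is lowest there too, but within counting error of 100 nM.

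Among myeloid and inflammatory genes, NLRP12, which encodes an NLR protein of myeloid cells that restrains inflammatory signaling, had 107, 288 and 478 counts, at 1.46 (1.14 to 1.80). TSC22D3 (chromosome X of hg19 from 106956451 to 107019017) had 592 counts at 100 nM and rose by 1.66 (1.36 to 1.99) at 50 nM; of the 16 tested FOXO and glucocorticoid targets with it, it was the only one called higher, and the median was 0.01. The inflammasome gene NLRC4 had 104, 60 and 58 counts and was called lower, at -0.75 (-1.24 to -0.28). The integrin gene ITGAX (CD11c) had 33, 72 and 91 counts and was called higher, at 1.15 (0.55 to 1.81), having passed the count filter through the 50 nM library alone. The integrin gene ITGAL was at 0.52 (0.50 to 0.55), with 22811, 31895 and 40424 counts, and VCAN, which encodes the matrix proteoglycan versican, was called higher with 1768, 3026 and 4183 counts, at 0.81 (0.73 to 0.90). The shared beta chain of the IL-3 and GM-CSF receptors, CSF2RB, had 775, 508 and 526 counts, at -0.57 (-0.73 to -0.41).

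Of 16 tested myeloid transcription factors 5 intervals lay above no change and 7 below, with EGR1 and GATA2 called lower. The stem cell factor GATA2 had 107, 67 and 56 counts and stood at -0.63 (-1.10 to -0.18), while SPI1, CEBPA and RUNX1 lay between -0.14 and -0.11, and HOXA9 and MEIS1, of the KMT2A fusion program, at -0.21 and 0.12. Interferon-stimulated genes and MHC genes had medians of -0.04 and 0.04, with 0 called in either list.

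Neither list of cell death genes, with 21 and 13 tested members, held a call, against 2.37% called among all genes tested. At that share, lists this short can easily hold no call. Of 21 tested p53 targets and death receptor genes, 9 intervals lay above no change and 0 below, with a median of 0.13; the BH3-only genes PMAIP1 (NOXA) and BBC3 (PUMA), which ATF4 and CHOP also induce, were at 0.34 (0.20 to 0.49) and 0.34 (0.15 to 0.53), MDM2 was at 0.14 and TP53INP1, an autophagy and stress gene, was highest at 0.54. In the BCL2 family the survival genes BCL2 and MCL1 were at 0.25 and -0.23 and the effector BAK1 at -0.39 (-0.50 to -0.28). Antioxidant targets of NRF2 had a median of 0.05, with SLC7A11 the only one called. Autophagy genes had a median of -0.09, with 11 of 25 intervals below no change and 3 above, and the kinase ULK1 at -0.42 (-0.60 to -0.24).

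Several of the largest changes belonged to no list. ZMAT1, a zinc finger gene, had 321, 713 and 1227 counts, at 1.19 (0.999 to 1.39), and KDM7A, a histone demethylase gene, had 104, 198 and 361 counts, at 0.97 (0.62 to 1.33). IDUA, a lysosomal enzyme, was at 1.17 with 55, 121 and 160 counts, and GRB10, an adaptor that damps insulin signaling and is named here after its value was seen, was at 0.84 (0.70 to 0.99) with 636, 1111 and 1515 counts. The other genes of the 15 largest rises were LINC00886, ZC3H6, PCYOX1L and ERMAP, at log2 fold changes of 0.98 to 1.20. Of the 15 largest falls, HIC1, a transcriptional repressor gene, had 120, 52 and 74 counts, at -1.16 (-1.67 to -0.69), and RAB39A (chromosome 11 of hg19 from 107799277 to 107834208) had 66 counts at 100 nM and a 50 nM value of -1.33 (-1.80 to -0.89). The other falls, RAB3IL1, ANKRD9, CTXN1, SLC45A3, TGFBR3L, TRIM7, MTARC1 and SIDT1, lay between -0.92 and -0.79.

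Gene classes cut across the pathways. Of the 270 long non-coding RNAs tested, 14 were called higher (5.19%) and 2 lower (0.741%), against 1.23% and 0.814% of the 10077 protein-coding genes, and their medians were 0.07 and -0.0034. The part of low counts or of opposite-strand reads in this contrast was not tested. The 239 models without a current symbol, which include 10 of the 11 opposite abundant genes, held 22 higher calls and 1 lower. Small nucleolar RNAs had a median of 0.14 over 74 tested, and zinc finger genes of chromosome 19 one of 0.06 over 126 tested of 254, with 22 intervals above no change and 8 below. By base composition, the GC-richest of 5 equal groups of genes (58.5% to 75.4% GC in exons) held 46 of the 91 lower calls and had a median of -0.05, whereas the other 4 groups had medians of 0.0043 to 0.0197. Of the 15 largest falls, 8 lie in that GC range (CTXN1, TGFBR3L, ANKRD9, HIC1, SDF2L1, IER5L, RAB3IL1 and SLC45A3), and the part of base composition in their values was not tested gene by gene.

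The 100 nM library shares the DMSO control, and the genes were called on the 50 nM library, so its values are a description. Calling on the 50 nM library also favors 100 nM values nearer to DMSO. The counts below are not set beside the same share over all genes tested, so they show neither an excess nor a lack. Of the 168 higher genes, 73 were higher still at 100 nM than at 50 nM by the interval of those 2 libraries, and of the 91 lower genes 11 were lower still. By that interval, 16 of the higher genes were lower at 100 nM than at 50 nM, and 11 of the lower genes were higher. Such a difference is not a distance from DMSO: the models opposite ACTB, EEF1A1, TUBA1B and TMSB4X lay below DMSO at 100 nM. Of the 16, 11 are the tested models opposite an abundant gene, SRR (opposite TSR1) among them, and the others are DTX4, CLYBL, FBN1, ZNF469 and ZP3. The 11 are EGR1, IER5L, TXNIP, PIM1, IFT25, FAM222A-AS1, SNORD23, SIGLEC17P, SANBR, KREMEN1 and MINDY4, named after their values were seen.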

How the data were processed

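Per the labels and the study's methods, RNA from Molm13 cells was made into strand-specific libraries (TruSeq stranded mRNA kit) and sequenced as 75-base paired reads, and the authors aligned the reads to hg19 and deposited raw counts per Entrez gene, made with featureCounts of Rsubread and not normalized. Whether counting used the strand is not given in the sources used here, so a gene and its antisense partner may share reads. The methods name the DMSO and 100 nM libraries only; the 50 nM library was taken from its label. A deposited table of the authors' own comparison, with group means, fold changes and posterior probabilities, was not used.

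Library sizes were scaled by TMM over the 3 libraries (R 4.3.3, edgeR 4.0.16). Genes reaching 50 counts in one of the 2 libraries or both were compared by a two-sided exact binomial test (scipy 1.17.1) with Benjamini-Hochberg adjustment. Fold changes had 0.5 counts added per library, and 95% intervals are Clopper-Pearson. These intervals leave out variation between cultures, which 1 library a condition cannot show. The binomial step was tested on simulated data that held counting error only, so that test does not bear on variation between cultures. DESeq2 1.42.0 size factors, other filters and thresholds, and edgeR's exact test under preset values of the variation between cultures were tried. Symbols and promoters came from RefSeq GRCh38.p14, and mitochondrial genes were named by their position; other coordinates are those of the counted models on hg19. The genes named are the 15 largest rises and the 15 largest falls among called genes with a symbol and at least 100 counts in either library, and up to 3 rises and 3 falls in each gene list; other genes were named after their values were seen. The comparison, the 58 lists and the response elements were chosen with earlier results of these data known.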

Additional observations from a re-analysis of the deposited data

Results flagged for a closer look

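Called genes were searched for any that lay above DMSO at one dose and below it at the other, each beyond counting error; the doses share the DMSO library and the difference was not tested with replicates. There were 4, and each is a gene model without a current symbol that lies opposite the exons of an abundant gene. The model opposite ACTB (Entrez 100505829) had 102 counts in DMSO, 233 at 50 nM and 42 at 100 nM, with log2 fold changes against DMSO of 1.23 and -1.32. The model opposite EEF1A1 (Entrez 100129409) had 77, 220 and 46 counts, with log2 fold changes of 1.55 and -0.78. The model opposite TUBA1B (Entrez 100288366) had 104, 182 and 76 counts, with log2 fold changes of 0.84 and -0.50. The model opposite TMSB4X (Entrez 100506583) had 119, 196 and 83 counts, with log2 fold changes of 0.76 and -0.56.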

How the results depend on the processing

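The count of called genes (259) was within 1.5 times of itself with total counts (259, of which 159 were higher and 100 lower), DESeq2 size factors (258), TMM without mitochondrial genes (258), filters of at least 10 counts (361) or 1 count (331), and, chosen after seeing the data, without the models opposite abundant genes (248), with at least 50 counts in both libraries (184) and after centring on 25 bins of GC content (255). It was 164 with at least 100 counts in either library, 40 at 2-fold and 1020 at a looser fold threshold, as fewer or more genes qualify. With edgeR's exact test and a preset coefficient of variation between cultures of 0.1 it was 32, of which 26 were higher and 6 lower. At a preset coefficient of 0.2 it was 0, with 51 genes at an unadjusted p under 0.05 (38 higher, 13 lower) and 446 at a coefficient of 0.1; the exact binomial call therefore depends on taking variation between cultures as nil, and these libraries do not measure it. Of the 47 called genes among the 304 named, 22 were called at a coefficient of 0.1 and 0 at 0.2. Under total counts, DESeq2 size factors, TMM without mitochondrial genes and 5 counts added, 1 of the 304, MT-CYB, changed side, being called lower with total counts. Centring on GC moved the median log2 fold change of the mitochondrial mRNAs from -0.28 to -0.30 and that of the mitochondrial ribosomal RNAs from 0.52 to 0.50, and a filter of 10 counts moved that of the T cell markers from 0.42, for TRAC alone, to -0.0294, as CD3D joined. No paired analysis was possible because each condition has 1 library and the labels carry no replicate numbers.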
